A study of Mus musculus with 12 samples.

Results

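Interleukin-1 (IL-1) signalling turns on agonist and antagonist in balance. Il1a and Il1b encode the agonists IL-1 alpha and IL-1 beta, and Il1rn encodes the receptor antagonist, which occupies the same receptor without signalling. Il18 encodes a related cytokine that drives interferon gamma production by lymphocytes. IL-1 beta and IL-18 are made as inactive precursors that caspase-1 cleaves, and Nlrp3 encodes the sensor that assembles one of the inflammasomes in which caspase-1 is activated. IL-1 alpha is active as a precursor. Macrophages and dendritic cells are known producers of these proteins in the lung. The rows Il1a, Il1b, Il1rn, Il18 and Nlrp3 of the deposited count table were taken as the members, 5 of the 754 genes on the panel.

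The series measured mRNA in CD11c+ cells from lungs of RELMa-/- mice, which lack resistin-like molecule alpha, a protein secreted during helminth infection. Each mouse carried an infection with Nippostrongylus brasiliensis, a lung-migrating nematode, started with 500 L3 larvae, and the lungs were collected on day 10. Sorted cells were cultured overnight and serum-starved (the protocols differ, giving 1 h and 2 h). Treatment with 500 ng/ml recombinant RELMa (rRELMa) or with PBS lasted 4 h. Lysate of about 5000 cells per sample was counted with the NanoString nCounter Myeloid Innate Immunity Panel, in which a barcoded probe is counted for each transcript. There were 12 samples in 4 groups of 3, namely rRELMa and PBS in run 2, and rRELMa and PBS in run 1. Mouse genotype, infection and cell sort were common to all 4 groups, so no cells from uninfected or RELMa-sufficient mice stand beside them. The labels state neither the animals' age nor what separated the runs, nor whether a group's 3 samples had different animals or cultures as their source. The p-values thus rest on a spread that could be purely technical.

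A run 2 sample held 411169 to 765719 endogenous counts, against 179719 to 257415 for a run 1 sample. The background limit of a sample, the mean plus 2 SD of its 8 negative-control probes, was 16.1 to 23.9 counts in run 2 and 19.7 to 31.1 in run 1. Retnla, the gene deleted in the mice, had 5 to 18 counts and lay above the limit in 0 of 12 samples. The minimum for testing, a mean raw count of 20, was met by 9 of 9 alveolar macrophage markers. It was met by 0 of 4 lymphocyte markers. Counts were scaled between samples with TMM, edgeR's trimmed-mean scaling, and are called scaled counts below.

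The 5 genes lie on 3 chromosomes in the RefSeq table of mouse assembly GRCm38.p6, where all 5 symbols matched. Il1a and Il1b are neighbouring genes on chromosome 2, and Il1rn lies on the same chromosome in another cluster, next to Il1f10, a further member of the family. Il18 is on chromosome 9 and Nlrp3 on chromosome 11. The 250 bases before annotated transcript starts are printed here for the agonists and for the antagonist, because Il1rn and Il1a differed between the runs in opposite directions and Il1b was at background in run 2. Capitals mark the AP-1 motif TGANTCA, searched on both strands, which 6.75% of the 32851 RefSeq windows of this length hold. The NF-kB consensus, searched on both strands as well and held by 7.25% of all windows, was found in 1 of the 2 Nlrp3 windows and in no window of the other 4 genes. Il1a and 1 of the 3 Il1rn windows held the AP-1 motif, and Il1b, Il18 and Nlrp3 did not. These are matches of letters and do not show binding, and the 2 motifs overlap in no window of these genes. Il1rn has several annotated starts, and those of the first and the last are shown. Which of its transcripts the probe reads is not stated.
Il1a upstream window, chr2:129309973-129310222, minus strand, GRCm38.p6: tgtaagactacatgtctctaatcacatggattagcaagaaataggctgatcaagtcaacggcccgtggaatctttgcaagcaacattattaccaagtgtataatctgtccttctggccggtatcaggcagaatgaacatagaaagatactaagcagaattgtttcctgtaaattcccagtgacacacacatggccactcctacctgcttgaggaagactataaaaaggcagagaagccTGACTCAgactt
Il1b upstream window, chr2:129371140-129371389, minus strand, GRCm38.p6: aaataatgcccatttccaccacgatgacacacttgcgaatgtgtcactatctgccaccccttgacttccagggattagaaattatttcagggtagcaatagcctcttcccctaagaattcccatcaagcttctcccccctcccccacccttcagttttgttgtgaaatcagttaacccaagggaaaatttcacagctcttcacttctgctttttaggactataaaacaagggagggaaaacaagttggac
Il1rn upstream window of the first start, chr2:24336610-24336859, plus strand, GRCm38.p6: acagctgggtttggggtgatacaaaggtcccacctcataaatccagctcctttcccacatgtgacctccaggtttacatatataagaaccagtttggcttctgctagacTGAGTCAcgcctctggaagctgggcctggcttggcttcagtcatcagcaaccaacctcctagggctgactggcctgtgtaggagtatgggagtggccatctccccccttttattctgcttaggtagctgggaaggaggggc
Il1rn upstream window of the last start, chr2:24345121-24345370, plus strand, GRCm38.p6: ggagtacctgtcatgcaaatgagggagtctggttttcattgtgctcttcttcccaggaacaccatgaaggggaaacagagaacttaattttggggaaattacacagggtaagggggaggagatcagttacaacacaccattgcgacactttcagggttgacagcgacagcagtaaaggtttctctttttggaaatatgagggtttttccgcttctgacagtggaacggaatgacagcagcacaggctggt

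Il1rn was the most strongly counted of the 5 probes and Il1b the weakest. Averaged over the 12 samples, the raw count was 644 for Il1rn, 124.5 for Il1a, 50.8 for Il18, 36.7 for Nlrp3 and 15.7 for Il1b. Counts of different probes depend on the probe as well as on the transcript, so this order does not rank transcripts. Il1rn, Il1a and Il18 lay above the background limit in 12 of 12 samples and Nlrp3 in 11 of 12. Il1b did so in 3 of 12 and missed the minimum, which left 4 members among the 413 genes tested.

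**Figure D1:**
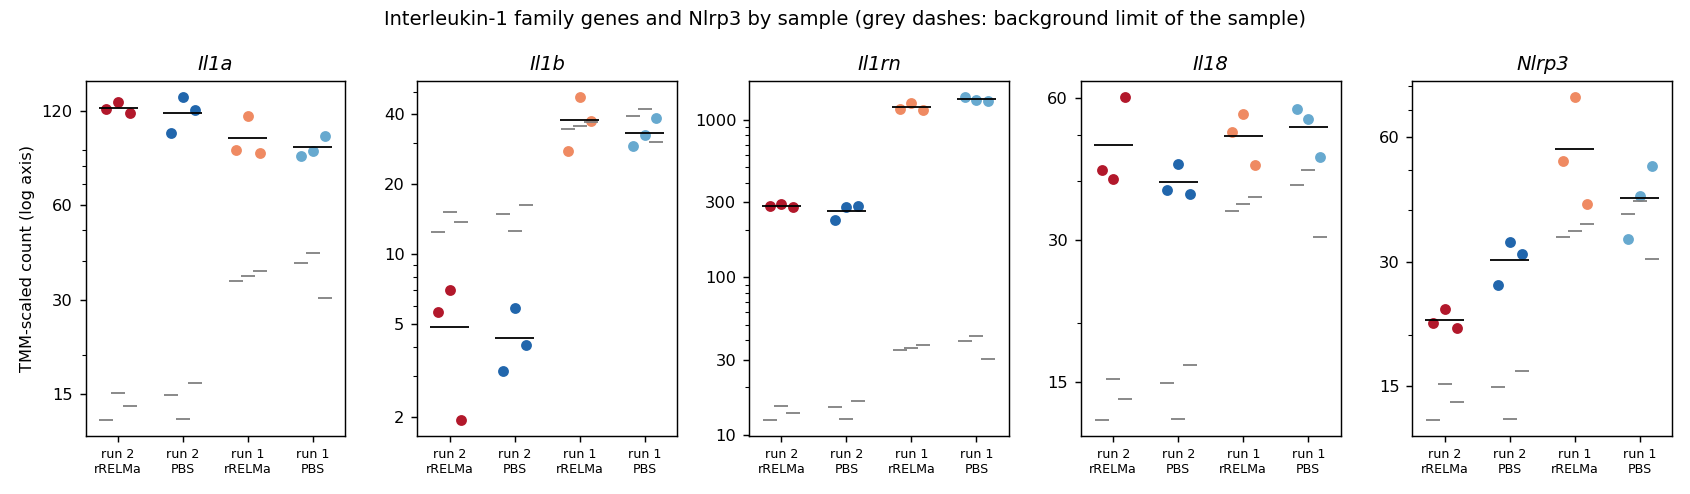
TMM-scaled counts (log axis) of the 5 genes in each of the 12 samples, with the group mean as a black line and the sample's background limit, scaled the same way, as a grey dash. Il1rn is at 232 to 293 in run 2 and at 1170 to 1400 in run 1, Il1b is below the dashes in all 6 run 2 samples, and Il1a is slightly higher in run 2.

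The first question was whether rRELMa changed these genes. In the fit of all 12 samples with run as a term, 0 of the 4 tested members were called (edgeR quasi-likelihood test, adjusted p under 0.05) and 0 of 4 had an unadjusted p under 0.05. Over all genes 0.242% were called and 7.26% had an unadjusted p under 0.05. DESeq2 and limma also called 0 members. This fit takes the effect as the same in both runs, so its 95% intervals limit only how large a shared change could have gone unseen. For Il1rn the fold change of rRELMa over PBS was 0.970 with an interval from 0.897 to 1.05. For Il1a it was 1.05 (0.925 to 1.19), for Il18 1.10 (0.918 to 1.32) and for Nlrp3 0.959 (0.753 to 1.22). The intervals were thus narrow for the antagonist and wide for the low-count Nlrp3. They do not bound effects within a run. Estimates within runs lay outside them for Il1rn (1.08 in run 2, 0.895 in run 1) and Nlrp3 (0.717 in run 2, 1.33 in run 1). Those of Il1a and Il18 lay inside. The median log2 fold change of the 4 members was 0.01, and that of all 413 genes was 0.01.

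Il1a, the alpha agonist, overlapped between treatments in both runs. In run 2 its scaled counts were 121.7, 128.6 and 117.8 with rRELMa, against 102.2, 132.8 and 120.6 with PBS. In run 1 they were 90.24, 116 and 88.35 with rRELMa, against 86.01, 89.5 and 100.1 with PBS. One rRELMa sample of run 1 stood above the rest of that run. The log2 fold change was 0.05 (SE 0.11) in run 2 and 0.11 (SE 0.16) in run 1, with edgeR adjusted p of 0.990 and 0.903. Without that high sample the run 1 value was -0.08.

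Il1rn, the antagonist, gave values on opposite sides of PBS in the runs. In run 2 its scaled counts were 283.9, 293.1 and 281.6 with rRELMa, against 231.9, 282.1 and 283.8 with PBS. In run 1 they were 1180, 1285 and 1167 with rRELMa, against 1400, 1340 and 1329 with PBS. In run 1 the 3 rRELMa samples were all lower than the 3 PBS samples, a separation in either direction that 12.3% of the tested genes showed, and in run 2 the groups overlapped. The log2 fold change was 0.11 (SE 0.08, edgeR adjusted p = 0.710) in run 2 and -0.16 (SE 0.06, unadjusted p = 0.019, adjusted p = 0.583) in run 1. The difference of the effects, run 2 minus run 1, was 0.27 (SE 0.10, edgeR unadjusted p = 0.0101, adjusted p = 0.482). Neither effect nor their difference passed the adjustment over all genes.

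Il18 had 1 high rRELMa sample in run 2 and overlapping groups in run 1. Its scaled counts in run 2 were 42.25, 40.32 and 60.21 with rRELMa, against 38.23, 43.49 and 37.5 with PBS. In run 1 they were 50.86, 55.34 and 43.24 with rRELMa, against 56.8, 54.25 and 44.91 with PBS. The groups overlapped in both runs. The log2 fold change was 0.24 (SE 0.16, edgeR adjusted p = 0.710) in run 2 and -0.03 (SE 0.21, adjusted p = 0.972) in run 1. Without the sample at 60.21 the run 2 value was 0.04.

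Nlrp3, the inflammasome sensor, had the widest gap between the runs in the direction of its values. In run 2 its scaled counts were 21.41, 23.04 and 20.72 with rRELMa, against 26.32, 33.5 and 31.42 with PBS. In run 1 they were 52.5, 75.11 and 41.36 with rRELMa, against 34.08, 43.4 and 51.33 with PBS. All rRELMa samples were below all PBS samples in run 2, where 14.8% of tested genes were separated in either direction, and the groups overlapped in run 1. The log2 fold change was -0.48 (SE 0.21, edgeR unadjusted p = 0.027, adjusted p = 0.535) in run 2 and 0.42 (SE 0.22, unadjusted p = 0.0685, adjusted p = 0.755) in run 1. Their difference was -0.90 (95% interval -1.51 to -0.28, edgeR unadjusted p = 0.00591, adjusted p = 0.482), the 4th smallest p of 413 genes but not past the adjustment. Raw Nlrp3 counts were low, 32 to 38 with rRELMa and 31 to 57 with PBS in run 2, and 22 to 57 with rRELMa and 21 to 40 with PBS in run 1, so counting error is large. Raw counts in run 2 overlapped.

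Across the single runs, edgeR called 0 of the 4 members for the effect of run 2, for that of run 1 and for their difference. Unadjusted p under 0.05 were reached by 1 member in run 2 (7.75% of all tested genes), 1 in run 1 (5.81%) and 2 for the difference (6.78%). Of all tested genes 0% were called in run 2, against 0.242% in run 1, and 0% for the difference. DESeq2 and limma likewise called 0 members.

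**Figure D2:**
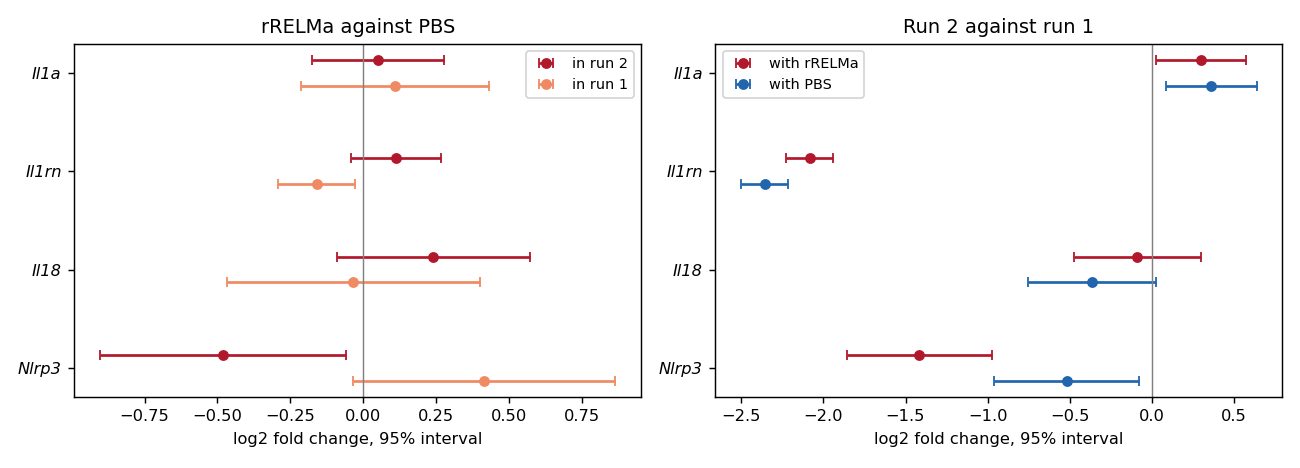
Log2 fold changes of the 4 tested genes with 95% intervals from edgeR, for rRELMa against PBS within each run (left) and for run 2 against run 1 within each treatment (right). On the left the Nlrp3 points lie at -0.48 in run 2 and 0.42 in run 1, and on the right Il1rn lies at -2.08 with rRELMa and -2.36 with PBS.

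The runs differed far more than the treatments, for these genes and for the panel. With treatment in the model, 3 of the 4 tested members were called between run 2 and run 1, with Il1rn and Nlrp3 lower and Il1a higher in run 2. This is the share seen across the panel, where 75.1% of tested genes were called, 34.1% higher and 40.9% lower in run 2. What separated the runs is not stated, so biology and assay cannot be told apart.

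Il1rn showed the largest difference of the tested members. Over the 6 samples of each run its scaled count was 276 ± 22 in run 2 and 1280 ± 93 in run 1 (SD, n = 6). The runs did not overlap, with a highest value of 293 in run 2 and a lowest of 1170 in run 1, where 54% of tested genes were separated in either direction. Il1rn was 4.65-fold lower in run 2 (log2 difference -2.22, SE 0.06, edgeR adjusted p = 5.98e-24). Raw counts did not overlap either, at 280 to 504 in run 2 and 621 to 1036 in run 1, although the total counts were larger in run 2. Only 17 tested genes had a more negative log2 difference, of 413. Within treatments the log2 difference was -2.08 (SE 0.07) with rRELMa and -2.36 (SE 0.07) with PBS, and edgeR called 2 members with rRELMa and 3 with PBS, against 63.9% and 66.3% of all tested genes.

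Nlrp3 was also lower in run 2, at 26.1 ± 5.36 scaled counts, against 49.6 ± 14.2 in run 1 (SD, n = 6). The highest run 2 sample, at 33.5, was just under the lowest run 1 sample, at 34.1, a separation that 54% of tested genes showed in either direction. The log2 difference was -0.96 (SE 0.17, edgeR adjusted p = 1.34e-05). The call ended with quantile normalization and limma (-0.44, adjusted p = 0.082), and with positive controls Nlrp3 was called higher in run 2 (0.82, edgeR adjusted p = 3.09e-06). With positive controls 376 of the 413 tested genes were called higher, and the median of all was 1.73. Within treatments the TMM value was -1.42 (SE 0.22, adjusted p = 1.29e-06) with rRELMa and -0.52 (SE 0.22, adjusted p = 0.0357) with PBS. The call of lower in PBS held in 11 of 21 other settings and turned to a call of higher with positive controls (1.10). It was lost, among others, with the removal of PBS replicate 1 of run 2 (-0.41) or of PBS replicate 2 (-0.49) or 3 (-0.36) of run 1. Raw counts overlapped widely, at 31 to 57 in run 2 and 21 to 57 in run 1. Background weighs on such counts: scaled like the genes, the negative-control mean was 6.27 to 8.07 in run 2 and 17.5 to 24.1 in run 1. With that mean subtracted from each sample the log2 difference was -0.89 (edgeR adjusted p = 0.0102).

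Il1a moved the other way and by less. Its scaled count was 121 ± 10.6 in run 2 and 95 ± 11.3 in run 1 (SD, n = 6), a log2 difference of 0.33 (SE 0.09, edgeR adjusted p = 0.0024). One run 2 PBS sample at 102 lay below the highest run 1 sample at 116, so the runs overlapped. The difference was 0.30 (SE 0.13, adjusted p = 0.0514) with rRELMa and 0.36 (SE 0.14, adjusted p = 0.0205) with PBS. In PBS the call was lost without replicate 2 of run 2 (0.25) or replicate 1 of run 1 (0.34). The call ended after scaling to reference genes (log2 difference 0.05, edgeR adjusted p = 0.676) or library totals (-0.03, adjusted p = 0.801).

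Il18 was not called between runs. Its scaled count was 43.7 ± 8.42 in run 2 and 50.9 ± 5.66 in run 1 (SD, n = 6). Raw counts were 37 to 93 in run 2 and 23 to 42 in run 1, where they were 1.17 to 1.55 times the background limit. The log2 difference was -0.22 (SE 0.13, 95% interval -0.50 to 0.05, edgeR adjusted p = 0.13). Background weighs on it, with a scaled negative-control mean of 6.27 to 8.07 in run 2 and 17.5 to 24.1 in run 1. With that mean subtracted from each sample the log2 difference was 0.028 (edgeR adjusted p = 0.894). The call depended on the setting. Il18 was called lower in run 2 with reference genes (log2 difference -0.51, adjusted p = 0.0011), with library totals (-0.58, adjusted p = 0.000254), at a mean count of 50 (-0.29, adjusted p = 0.0392) and without the run 2 rRELMa sample at 60.21 (-0.33, adjusted p = 0.0178). It was called higher with positive controls (1.56, edgeR adjusted p = 1.79e-22), where the median of all tested genes was 1.73.

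Il1b, the beta agonist, was at background in run 2 and at or just above it in run 1. Its raw counts in run 2 were 10, 11 and 3 with rRELMa and 5, 10 and 4 with PBS. In run 1 they were 17, 36 and 20 with rRELMa and 18, 24 and 30 with PBS. In run 2 the raw count was below the mean of the sample's own negative controls in all 6 samples, with differences of -7.88 to -1 counts. In run 1 it was above that mean in 6 of 6 samples, by 3.12 to 21.9 counts, and above the background limit in 3 of 6. The raw counts of the runs did not overlap, although the runs' total counts differ the opposite way. In scaled counts 54% of the tested genes were separated between the runs in either direction. The gene was not in the main fit, and no p-value or fold change is given because its run 2 counts are at background. Between treatments the Il1b groups overlapped in both runs.

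Ratios of 2 probes within a sample do not depend on the scaling, and Il1rn over Il1a separated the runs. They do depend on background, which was not subtracted. The negative-control mean was 7.62 to 12.9 raw counts in run 2 and 9.5 to 15 in run 1. In run 1 Il1a had 47 to 88 raw counts, Il18 23 to 42 and Nlrp3 21 to 57. Background thus weighs on ratios with these genes, above all on Nlrp3 over Il1a. The raw count ratio of Il1rn over Il1a was 2.33, 2.28 and 2.39 in run 2 with rRELMa and 2.27, 2.12 and 2.35 in run 2 with PBS. In run 1 it was 13.1, 11.1 and 13.2 with rRELMa and 16.3, 15 and 13.3 with PBS. The runs did not overlap, and the geometric mean of the ratio was 5.94-fold higher in run 1. Il1rn over Il18 was 4.68 to 7.57 in run 2 and 23.2 to 29.6 in run 1. The Nlrp3 over Il1a ratio was 0.176 to 0.179 with rRELMa and 0.252 to 0.261 with PBS in run 2, and 0.468 to 0.648 with rRELMa and 0.396 to 0.513 with PBS in run 1. In run 2 the treatments were separated in this ratio and in run 1 they overlapped. These ratios are of probe counts, chosen after the values were seen, and were not tested.

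**Figure D3:**
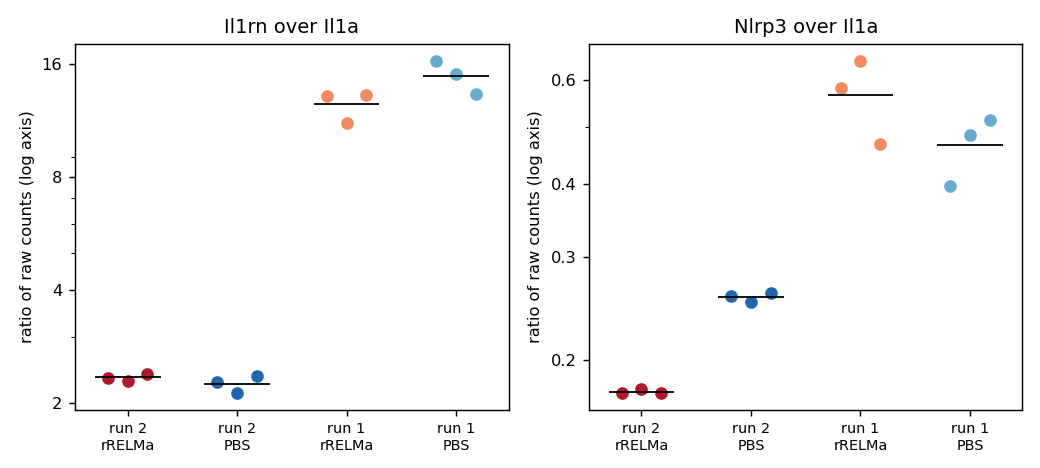
Ratios of raw counts within each sample (log axes), Il1rn over Il1a on the left and Nlrp3 over Il1a on the right, with group means as black lines. Il1rn over Il1a lies between 2.12 and 2.39 in run 2 and between 11.1 and 16.3 in run 1.

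How far the run difference reached depended on what the counts were scaled to. The median log2 difference of all tested genes was -0.05 with TMM, -0.01 with DESeq2's size factors, -0.34 with reference genes, -0.41 with library totals, 0.14 with quantile normalization, 0.07 after subtracting the negative controls and 1.73 with the positive controls. The split of called genes moved with it. TMM gave 141 higher and 169 lower in run 2, while reference genes gave 75 and 232, library totals 67 and 255, quantiles 186 and 126, and positive controls 376 and 19. Scalings by 1 factor per sample shift all genes alike, so a member's distance from that median is nearly the same under each of them by construction. Quantile normalization and subtraction of the negative controls can change it. For Il1rn the distance was -2.17 with TMM, -2.18 with quantiles and -2.49 after subtraction. For Nlrp3 it was -0.91, -0.58 and -0.97 in the same order, for Il1a 0.38, 0.28 and 0.31, and for Il18 -0.17, -0.036 and -0.047. As fitted, Il1rn was negative under all 7, with -0.43 under the positive controls, where Nlrp3 turned to 0.82.

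**Figure D4:**
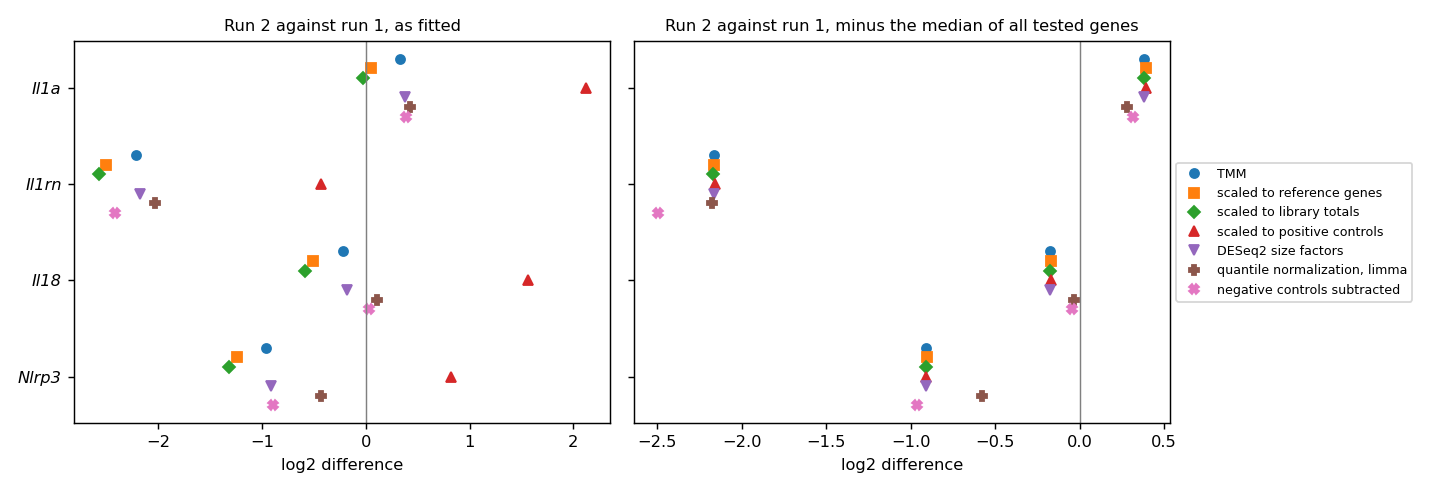
Log2 difference of run 2 over run 1 for the 4 tested genes under 7 scalings (symbols), as fitted on the left and after subtraction of the median of all 413 tested genes on the right. The positive-control scaling moves every gene to the right on the left panel, and on the right panel, where scalings by 1 factor per sample coincide by construction, the symbols of Il1rn lie between -2.49 and -2.16.

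Other genes of the pathway came from lists of further ligands, receptors, inflammasome components with NOD sensors, and signalling genes. Of the ligands on the panel Il33, an alarmin of the family, had 1 to 11 counts and was above the limit in 0 of 12 samples. Of 5 receptors on the panel 1 passed the minimum, Il1rap, the shared accessory chain of the IL-1 receptors, with a log2 difference between runs of 0.06 (SE 0.16, edgeR adjusted p = 0.773). The signalling receptor Il1r1 and the decoy receptor Il1r2 had 7 to 19 and 3 to 21 counts, and both were above the limit in 0 of 12 samples. Both of these receptor probes were thus at background.

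The list of inflammasome components and NOD sensors had 2 tested genes, the inflammasome protease Casp1 and the NOD sensor Nod1. Both were called lower in run 2, where 40.9% of all tested genes were. Casp1, the protease that cleaves the IL-1 beta and IL-18 precursors, fell by 0.23 on the log2 scale (SE 0.07, edgeR adjusted p = 0.00433), with 250 ± 21 scaled counts with rRELMa and 229 ± 22 with PBS in run 2, against 270 ± 23.1 with rRELMa and 288 ± 26.3 with PBS in run 1 (SD, n = 3 each). Casp1 was not called with rRELMa alone (-0.12, adjusted p = 0.268). Nod1, a sensor of bacterial peptidoglycan, fell by 0.83 (SE 0.13, adjusted p = 1.74e-06). Pycard, the adaptor between Nlrp3 and caspase-1, had 7 to 33 counts, was above the limit in 4 of 12 samples and was not tested.

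Of the 6 signalling genes 3 were called lower in run 2, 0 higher and 3 were not called, which is close to the 40.9% of all tested genes called lower and below the 75.1% called in either direction. The 3 were the inhibitors of NF-kB signalling Nfkbia (log2 difference -0.45, SE 0.07, edgeR adjusted p = 2.35e-06) and Tnfaip3 (-0.27, SE 0.09, adjusted p = 0.00619), and Nfkbiz (-0.94, SE 0.19, adjusted p = 6.69e-05), an NF-kB cofactor that is itself induced by IL-1. Nfkbiz had only 14 to 32 raw counts, above the background limit in 5 of 6 samples of run 2 and 3 of 6 of run 1. The scaled negative-control mean was 6.27 to 8.07 in run 2 and 17.5 to 24.1 in run 1, so background weighs on its difference. The adaptor Myd88 was at -0.12, the ubiquitin ligase Traf6 at -0.03 and the NF-kB subunit Nfkb1 at 0.11. All 5 genes called lower, Casp1 and Nod1 included, turned positive with the positive-control scaling (0.84 to 1.55). Under it the median of all tested genes was 1.73, above all 5, and 376 of 413 were called higher. Tnfaip3 was not called with PBS alone (-0.11, edgeR adjusted p = 0.423). Of the 7 scalings, a call of lower was made in 6 for Nod1, Nfkbia and Tnfaip3, in 5 for Casp1 and in 4 for Nfkbiz. Il1rap was called higher in 3 of the 7, Myd88 and Traf6 lower in 2 and higher in 1, and Nfkb1 lower in 1 and higher in 2. For rRELMa against PBS, 0 of these 9 tested pathway genes were called by edgeR, with log2 fold changes from -0.11 for Tnfaip3 to 0.19 for Il1rap.

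Genes with the pattern most like each member were found by Pearson's r of log2 scaled counts over the 12 samples among 409 other tested genes. These values describe samples that share the run difference and have no test. Il1rn was most like Psme2, a proteasome activator subunit (r = 0.996), Cd14, a coreceptor for lipopolysaccharide (0.996), and Cd1d1, which presents lipid antigens (0.995), and 89 genes reached more than 0.9. Within run 2 and within run 1 the same pairs had r of 0.31 to 0.65 and 0.25 to 0.65 over 6 samples each. Nlrp3 was most like the interferon-inducible Mx1 (0.876) and Cxcl10 (0.863) and the integrin Itga5 (0.872). These pairs had r of 0.63 to 0.89 within run 2 and only 0.13 to 0.42 within run 1. Il1a was most like Ccrl2, an atypical chemoattractant receptor (0.90), Cd83, a maturation marker of dendritic cells (0.888), and Gnai3, a G-protein subunit (0.878). Within runs the Il1a pairs had r of 0.43 to 0.83 in run 2 and 0.62 to 0.83 in run 1. Il18 had no close match, with Rnase2a at 0.751, Bcl6 at 0.741 and Pdcd1lg2 at 0.661.

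Markers of several cell types also differed between the runs, and in bulk samples a smaller number of cells of a type and less RNA per cell cannot be told apart. For alveolar macrophages 7 of 9 markers were called higher in run 2 and 1 lower, and their summed scaled count was 94900 to 104700 in run 2, against 65420 to 73430 in run 1. One gene, Chil3, a chitinase-like protein, made up 96.9 to 97.2% of the sum in run 2 and 97.2 to 97.7% in run 1, and the other 8 markers summed to 2942 to 3208 in run 2 and 1716 to 1848 in run 1. Of 9 tested dendritic cell markers (10 on the panel) 5 were higher and 2 lower, with sums of 888.8 to 1199 in run 2 and 585.8 to 830.2 in run 1. Of 4 monocyte markers on the panel 2 were tested. Ly6c1 had 3 to 14 raw counts in run 2, above the limit in 0 of 6 samples, and 45 to 76 in run 1, above it in 6 of 6, so its difference has no measured size. Fn1, which macrophages also make, was higher in run 2 (log2 difference 1.66, edgeR adjusted p = 7.81e-15) and made up 90.8 to 94.2% of the monocyte sum there, against 27.4 to 39.7% in run 1. Of 12 neutrophil markers 3 were tested, with Mmp8 and Cxcr1 higher and S100a8 lower in run 2, and sums of 1001 to 1185 in run 2 and 654.2 to 792.5 in run 1. The defining neutrophil gene Ly6g had 2 to 9 counts, above the limit in 0 of 12 samples. The 4 lymphocyte markers summed to 16.9 to 29.39 in run 2 and 84.59 to 130.9 in run 1, and 0 of them were above the limit in all samples. As many probes at the scaled negative-control mean would sum to 25.07 to 32.28 in run 2 and 69.94 to 96.55 in run 1. These ranges overlap the measured sums, though the run 1 sums reach higher. In run 1 Gzma was above the limit in 4 of 6 samples and Cd247 in 3 of 6. In run 2 both were above it in 0 of 6. Ms4a1 and Nkg7 were above it in 0 of 12. The part of these markers in the differences of Il1rn, Nlrp3, Il1a and Il1b was not tested.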

How the data were processed

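The authors' deposited values are whole-number counts per probe, not scaled, as the control probes and the differing totals of the table show (768 probes, with 754 genes, 6 positive and 8 negative controls). Per the labels' protocols, lysates were hybridised for 18 h. No source used here names the counting software. Groups came from the sample titles. The members and gene lists were chosen with earlier results of these data known. Genes with a mean count of at least 20 were tested, without 22 reference genes, which left 413. TMM-scaled counts were tested with edgeR's quasi-likelihood test (edgeR 4.0.16, limma 3.58.1, R 4.3.3) with run and treatment as terms, and with 1 coefficient per group for effects within runs, their difference and runs within treatments. Two-sided p-values received Benjamini-Hochberg adjustment across the 413 genes. Named genes were the 5 members, called genes of the pathway lists, the 3 genes most correlated with each member, and leading or absent markers. Alternatives were other scalings, DESeq2 1.42.0, limma on log2(count + 1), other filters (none, or a mean count of 50), each sample left out and a replicate block. The scripts were tested on simulated data. Each sample counted once. No replicate pair of a group matched within sampling noise (chi-square over its degrees of freedom 1.56 to 3.26). That check cannot tell separate animals or cultures from repeated assays of the same cells. Same-numbered rRELMa and PBS samples did not deviate together (correlation -0.08 to -0.03), so numbers were not taken as pairs.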

Additional observations from a re-analysis of the deposited data

How the results depend on the processing

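For rRELMa against PBS, 0 members were called in any of the 24 other settings, in run 1 and in run 2 likewise, and in the 23 for the difference between runs. The count of all genes called was 1 and became 2 without the filter and 0 without the run in the model. In run 1 it was 1, became 2 with quantile normalization and 0 with reference genes, library totals, DESeq2, limma, subtracted negative controls or no filter, and was 0 to 1 with single samples left out. In run 2 it was 0, and 1 with the replicate block or with run 2 samples alone. The replicate block changed no call of a member, with a log2 fold change for Nlrp3 of -0.47 in run 2 and 0.40 in run 1. Uncalled values changed sign as follows. Nlrp3 over both runs was 0.00099 with quantiles and 0.058 without the run, and -0.28 to 0.056 with samples left out. Il1a was -0.065 in run 1 with positive controls, -0.0081 in run 2 with library totals and 0.27 for the difference with positive controls. With samples left out it was -0.084 to 0.18, -0.058 to 0.16 and -0.17 to 0.12 in these 3 comparisons. Il18 in run 1 was 0.0038 after subtraction of negative controls and -0.17 to 0.0051 with samples left out.

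Between runs Il1rn stayed lower in all settings (-2.58 to -0.43 over both treatments), and with rRELMa alone it was not called with the positive controls (-0.13). Without the filter 732 genes were tested, and 531 of them were called over both treatments, 413 in PBS and 419 with rRELMa. With the filter 413 genes were tested, and the counts were 310, 274 and 264, so the 2 sets of counts have different bases. Members called with rRELMa were 2 of the 4 tested, 1 at a mean count of 50, which drops Nlrp3, and 2 to 3 with samples left out. Without the filter they were 4 of 5, with Il1b among them. Its run 2 counts are at background, so its difference has no measured size. Il1a was -0.026 with library totals over both treatments and -0.091 with rRELMa. Il18 was called lower with reference genes (-0.51) and library totals (-0.58), and was positive with the positive controls (1.56, a call, with PBS 1.254, with rRELMa 1.86), with quantiles (0.10, with rRELMa 0.23), after subtraction (0.028, with rRELMa 0.16) and without the filter (0.16, with PBS 0.0011, with rRELMa 0.31), and was -0.29 to 0.042 with rRELMa and samples left out. Nlrp3 was called higher with the positive controls (0.82, with PBS 1.10, with rRELMa 0.54). With quantiles it was not called over both treatments (-0.44), nor in PBS, where its sign changed (0.016). The cause of these changes was not tested. The counts of Il1b, Nlrp3 and Il18 near the background limit bound what could be detected.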
